A study of Mus musculus with 8 samples.

Results

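The nuclear genes of the mitochondrial respiratory chain and ATP synthase were examined in mouse induced pluripotent stem (iPS) cells. Members were the genes whose symbol starts with Nduf, with Sdh followed by a letter from a to d, with Uqcr, with Cox4 to Cox8, or with Atp5, and that had a probe set (a group of array probes for 1 transcript) annotated to that symbol alone. The rule gave 94 of the 18193 genes with such a probe set. They were 36 genes of complex I, 4 of complex II, 8 of complex III, 17 of complex IV and 17 of ATP synthase, and 12 assembly factors (Ndufaf and Sdhaf genes) whose symbols fall under the same prefixes. The brightest probe set by its mean over all arrays stood for a gene. Probe sets in the dimmest 40% were not tested, and 91 members passed. Ndufb4, Cox7b2 and Cox8b did not, and their values are given without a test.

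The study compared 4 iPS clones derived with ascorbic acid (vitamin C) and 4 derived without it, with 1 Affymetrix mouse 430_2 array per clone. Per the labels and the design text, all 8 clones came from embryonic fibroblasts (MEFs), although the series title names B cells. The MEFs came from Col-OKSM reprogrammable mice, in which doxycycline switches on Oct4, Sox2, Klf4 and cMyc. Both groups grew in medium with serum, LIF and doxycycline on irradiated MEF feeders, so the factors were under induction in controls too, and preplating removed feeders before total RNA was isolated. The labels call the clones biological replicates and name no separate embryo or culture for each. The p-values therefore set the difference between groups against the spread of these particular clones, which may be partly technical. They may not extend to other clones.

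The respiratory chain passes electrons from NADH (complex I) and succinate (complex II) through ubiquinone, complex III and cytochrome c to oxygen at complex IV. Complexes I, III and IV pump protons across the inner membrane, and ATP synthase uses the proton gradient to make ATP. Most subunits are encoded in the nucleus and the rest in mitochondrial DNA, and dedicated assembly factors build the complexes. Pluripotent stem cells are known for a high rate of glycolysis beside oxidative phosphorylation, and reprogrammed fibroblasts remodel their mitochondria on the way.

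Many promoters of these genes lack a TATA box and carry sites for NRF1, GABP (an ETS factor), YY1 or SP proteins. Promoter windows from RefSeq (GRCm38.p6), 250 bases before to 50 after each start, matched 78 of the 94 members and 10568 of the tested genes. The stretch of 250 bases before the start is shown for 4 members that later results turn on, each read 5′ to 3′ on the gene's strand with matches of the NRF1, ETS and SP or KLF motifs in capitals. Matches of the CCAAT motif, which all 4 stretches also hold, are left in lower case. Ndufaf2 and Cox6b2 are among the members with the smallest p, Atp5h has the widest spread over clones in ATP synthase, and Atp5b encodes the catalytic subunit.
Ndufaf2: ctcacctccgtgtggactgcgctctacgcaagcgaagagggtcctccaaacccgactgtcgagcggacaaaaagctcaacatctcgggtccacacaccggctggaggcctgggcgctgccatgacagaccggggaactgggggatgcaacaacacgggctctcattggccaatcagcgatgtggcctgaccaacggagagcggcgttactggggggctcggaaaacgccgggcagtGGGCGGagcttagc
Atp5h: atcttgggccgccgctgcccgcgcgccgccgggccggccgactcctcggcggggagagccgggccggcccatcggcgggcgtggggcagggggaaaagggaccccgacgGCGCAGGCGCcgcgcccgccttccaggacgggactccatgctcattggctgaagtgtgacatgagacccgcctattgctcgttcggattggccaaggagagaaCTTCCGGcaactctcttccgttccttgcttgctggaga
Atp5b: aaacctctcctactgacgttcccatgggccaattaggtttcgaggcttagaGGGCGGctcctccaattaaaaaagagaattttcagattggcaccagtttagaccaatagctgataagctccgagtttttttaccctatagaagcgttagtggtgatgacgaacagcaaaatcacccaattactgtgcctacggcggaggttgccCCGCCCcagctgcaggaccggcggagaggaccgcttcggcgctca
Cox6b2: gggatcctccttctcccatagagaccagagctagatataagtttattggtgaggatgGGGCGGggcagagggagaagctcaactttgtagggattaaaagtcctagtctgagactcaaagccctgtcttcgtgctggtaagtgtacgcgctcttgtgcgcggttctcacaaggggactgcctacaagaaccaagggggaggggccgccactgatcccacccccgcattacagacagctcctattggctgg
The Ndufaf2 stretch lies at chr13:108158626-108158875 on the minus strand, and its capitals mark GGGCGG, the SP or KLF motif, starting 14 bases before the transcript start. The Atp5h stretch lies at chr11:115419920-115420169 on the minus strand. Its capitals mark the NRF1 motif (GCGCA and GCGC with any 1 base between them), starting 141 bases before the start, and the ETS motif CCGGAAG on the opposite strand, starting 38 bases before it. The Atp5b stretch lies at chr10:128083057-128083306 on the plus strand and holds GGGCGG 199 bases before the start and, on the opposite strand, 45 bases before it. The Cox6b2 stretch lies at chr7:4753095-4753344 on the minus strand, with GGGCGG 193 bases before the start.

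All motifs were searched on both strands of the whole windows, and matches of different motifs may overlap. The NRF1 motif occurred for 19 of 78 members (24.4%), in 10.7% of tested genes and in 4.6% of all 32851 windows of the table. It was found for 6 of 15 ATP synthase genes, 4 of 11 assembly factors and 1 of 12 complex IV genes. CCGGAAG occurred for 28.2% of members and 18.5% of tested genes (8.86% of all windows), and the YY1 motif AANATGGCG for 14.1% and 5.53% (2.38% of all windows). The order was the other way for GGGCGG, found for 50.0% of members and 66.5% of tested genes (35.7% of all windows), although 10 of 11 assembly factors had it. The TATA motif TATAAA was present for 11.5% of members, 9.49% of tested genes and 13.6% of all windows. A match describes the letters of the window and does not show a bound site. Another gene started on the opposite strand within 1000 bases for 23 of 78 members (29.5%), against 18.4% of tested genes. Such partners include Gabpa, a subunit of GABP, 148 bases from the start of Atp5j, and Ercc8, a DNA repair gene, 113 bases from that of Ndufaf2.

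The arrays were close in the 3′ to 5′ ratio of actin, which was 1.141 to 1.278. Each had the same trimmed mean signal of 500, so that value does not compare them. Median signals were 134 to 156.2, and the 100 brightest probe sets, with controls counted, held 6.07% to 8.36% of an array's signal. Pluripotency markers were all above the filter, 10 of 10, and 9 of 10 were lower with ascorbic acid (8 of 10 after quantile normalization). Their signals summed to 88291 to 106052 in clones with it and to 96746 to 112291 in those without (Pou5f1, which encodes Oct4, read 10295 ± 948 with and 11283 ± 292 without ascorbic acid, mean ± SD, n = 4 each). Fibroblast and feeder markers were also present: 13 of 15 with a probe set were above the filter, and 13 of 15 were lower with ascorbic acid, as they were after quantile normalization, against 12 of 15 after median centring or cyclic loess. Their signals summed to 41235 to 50578 in clones with ascorbic acid and to 49077 to 51841 in the others. Of the markers of other cells, 5 of 9 for muscle, 5 of 7 for blood and 5 of 6 for primitive endoderm were above the filter, and no marker was at 0. Myh6, Myh7, Tnnt2 and Myog (muscle) and Cd79b and Ptprc (blood) were below it. Of the primitive endoderm markers, 5 of 6 were higher with ascorbic acid. Summed muscle marker signals were 1401 to 1889 with and 1589 to 2193 without, those of 7 blood markers 929.3 to 1000 and 882.3 to 1113, and those of 6 primitive endoderm markers 948.1 to 1211 and 867.3 to 1013. The part of the cells these markers stand for in the respiratory chain values was not tested. In bulk RNA, fewer cells of a type and less RNA per cell cannot be told apart.

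No respiratory chain gene passed the test between clones derived with and without ascorbic acid. With limma and Benjamini-Hochberg adjustment over all 13129 tested genes, 0 of 91 members had an adjusted p under 0.05, where 3 of all genes did (0.0229%). The lowest adjusted p among members was 0.769. At an unadjusted p under 0.05 there were 3 of 91 members (3.3%), against 5.87% of all genes. Ndufaf2 was 1 of them, higher with ascorbic acid (3.09% of all genes), and Cox7c and Cox6b2 were lower (2.78% of all genes). The groups did not overlap for 2 of 91 members (2.2%), against 3.63% of all genes. For Ndufaf2 all clones with ascorbic acid were above (2.06% of all genes), and for Ndufaf5 all were below (1.57%). The first share depended on single clones and on the scaling. Leaving out clone 3 with ascorbic acid gave 10 of 91 (11%, all genes 6.99%), leaving out clone 2 without it gave 9 (9.89%, all genes 7.25%), and quantile normalization gave 7 (7.69%, all genes 6.15%).

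Differences are given as log2 of signal plus 16, with minus without ascorbic acid. They ran from -0.31 for Cox7c to 0.27 for Ndufaf2. The median over the 91 members was -0.020, beside -0.0038 over all genes. As deposited, 34 members were higher and 57 lower with ascorbic acid. The split depended on the scaling: it was 43 higher and 48 lower after quantile normalization, 45 and 46 after cyclic loess, and 51 and 40 after median centring, where the median turned to 0.014. It also depended on single clones. Leaving out clone 1 with ascorbic acid gave 47 higher of 92 and a median of 0.0040, and leaving out clone 3 of that group gave 22 higher of 91.

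The size of a difference was bounded for each gene by its interval. The 95% confidence interval of the difference lay inside a 1.5-fold change either way for all 91 members, and for 84.5% of all genes. It lay inside a 1.25-fold change for 76 members (83.5%), against 47.2% of all genes. By complex these were 34 of 35 genes of complex I, 4 of 4 of complex II, 7 of 8 of complex III, 8 of 15 of complex IV, 14 of 17 of ATP synthase and 9 of 12 assembly factors. Most members are bright, and among all genes with a mean signal of 1000 or more, 84.2% lay inside a 1.25-fold change, beside 89.9% of the 79 members that bright. At 8000 or more the share was lower, 69.6% of all genes and 78.9% of the 19 members. The median SD of a member within a group was 0.106 on the log2 scale, against 0.152 for all genes and 0.100 for genes of 1000 or more.

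**Figure D1:**
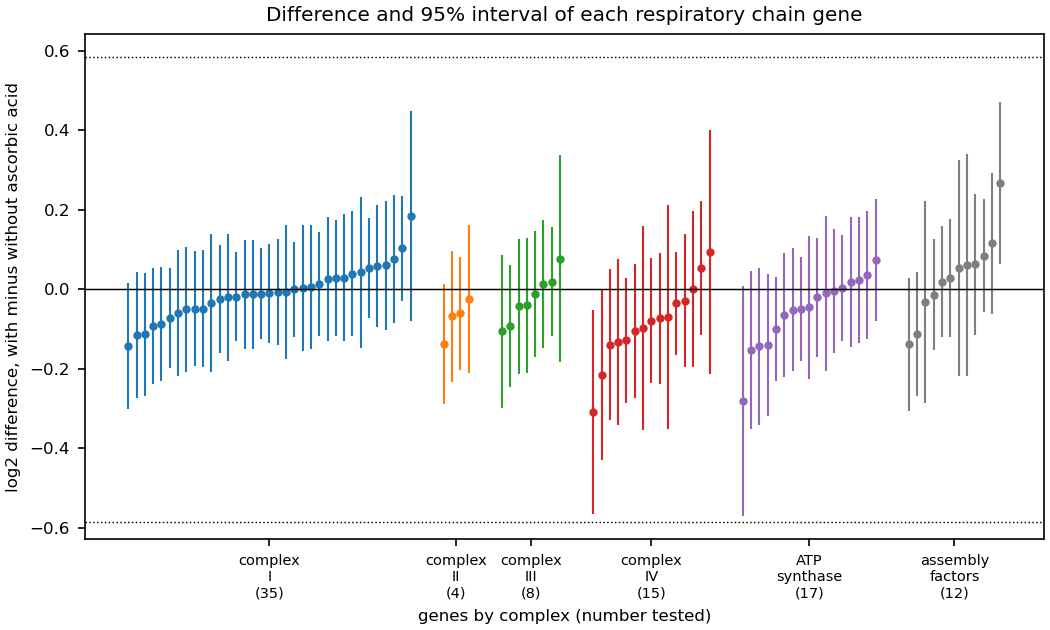
Each point is 1 respiratory chain gene and its height is the log2 difference, with minus without ascorbic acid; bars are 95% confidence intervals from limma and dotted lines mark a 1.5-fold change. All 91 intervals lie between the dotted lines, and the points run from -0.31 (Cox7c, complex IV) to 0.27 (Ndufaf2, assembly factors).

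Complex I, the NADH dehydrogenase and the largest complex of the chain, had 35 tested genes, 15 higher and 20 lower with ascorbic acid as deposited, 21 and 14 after cyclic loess and 24 and 11 after median centring. The median difference was -0.010 as deposited and 0.023 after median centring, and 0 were called. The member with the smallest p was Ndufa4, grouped here by its symbol although its protein is now counted as a subunit of complex IV. In clone order 1 to 4, Ndufa4 read 4009, 4591, 4684 and 3828 with ascorbic acid and 4908, 4650, 4449 and 4821 without. Clones 1 and 4 with ascorbic acid were below all clones without it, and clones 2 and 3 lay among them. The log2 difference was -0.14 (SE 0.073, adjusted p 0.839 by limma).

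Ndufa2, an accessory subunit with a thioredoxin-like fold, read 3896, 4109, 4290 and 3713 with ascorbic acid and 3696, 3535, 3754 and 3898 without. Its groups overlapped, with clones 2 and 3 with ascorbic acid the highest of all, and the difference was 0.10 (SE 0.061, adjusted p 0.839). Ndufs4, an accessory subunit whose loss is known to impair complex I and cause a Leigh-like disease, read 2287, 2491, 2570 and 2056 with and 2619, 2467, 2573 and 2484 without. Clones 1 and 4 with ascorbic acid were again the lowest, and the difference was -0.11 (SE 0.071, adjusted p 0.847). Ndufa7, another accessory subunit, read 10632, 11860, 12127 and 11537 with and 12525, 11406, 12303 and 13816 without, a difference of -0.12 (SE 0.073, adjusted p 0.847) between overlapping groups. All 5 Ndufa7 probe sets were lower with ascorbic acid on average.

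The widest range over the 8 clones in complex I was that of Ndufb1, a small accessory subunit, at 0.525 log2. It read 359.2, 467, 410.7 and 495.6 with ascorbic acid and 439.7, 339.7, 368.7 and 363.9 without. The high clones were 2 and 4 with and 1 without, and the difference of 0.18 had an SE of 0.12 (adjusted p 0.847). The narrowest was that of Ndufa9, at 0.109 log2, with signals from 4179 to 4508 in all 8 clones. Catalytic core subunits had small differences: that of Ndufv1, which carries the NADH site, was -0.093 (SE 0.067), that of Ndufs1, which carries iron-sulfur clusters, was -0.020 (SE 0.073), and that of Ndufs7 was -0.025 (SE 0.063). Ndufb4 was the 1 complex I member below the filter, with signals of 55.28 to 122.4. A brighter probe set for it names near-identical copies as well (Ndufb4b and Ndufb4c) and was left out by the rule. It read 4844 ± 477 in the group with ascorbic acid and 5004 ± 133 in the other (SD, n = 4 per group).

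Complex II, succinate dehydrogenase, is the complex that the chain shares with the tricarboxylic acid cycle, and all of its subunits are nuclear. All 4 subunits were lower with ascorbic acid as deposited and after quantile normalization or cyclic loess, and 3 of 4 after median centring. The median was -0.064, and 0 were called. Sdha, the flavoprotein that oxidises succinate, read 5248, 6429, 5605 and 5674 with and 6166, 5420, 5963 and 6498 without (difference -0.068, SE 0.075). Sdhb, the iron-sulfur subunit, read 5049, 5831, 5531 and 5101 with and 5645, 5250, 5541 and 5985 without (difference -0.060, SE 0.065). For both, clone 2 with ascorbic acid was above every clone without it except clone 4, so the groups overlapped.

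Sdhc and Sdhd anchor the enzyme in the membrane. Sdhc read 4347, 4991, 5004 and 4269 with ascorbic acid and 5098, 4820, 5082 and 5446 without, and its difference of -0.14 (SE 0.070, adjusted p 0.839) was the largest of the complex. Sdhd read 3797, 4578, 4230 and 3955 with and 4340, 3670, 4075 and 4807 without, a difference of -0.025 (SE 0.085, adjusted p 0.977) that turned to 0.0082 after median centring. A dimmer Sdhd set pointed the other way, with a difference of 0.21 (SE 0.2). In the brightest sets, clone 4 without ascorbic acid read highest for Sdha, Sdhb, Sdhc and Sdhd.

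Complex III, the cytochrome bc1 complex, had 8 tested members, 3 higher and 5 lower with ascorbic acid as deposited, and 4 and 4 after quantile normalization or median centring. The median was -0.026 (0.0071 after median centring), and 0 were called. Uqcrc1, a core protein, read 7004, 8354, 7946 and 7735 with ascorbic acid and 8120, 7627, 8430 and 8883 without (difference -0.092, SE 0.071, adjusted p 0.882). Uqcrb, a small subunit near the ubiquinone site, read 13418, 16197, 16634 and 14583 with and 16510, 14390, 16608 and 17918 without. Its difference was -0.11 (SE 0.089, adjusted p 0.892) and turned to 0.0098 after quantile normalization. A dimmer Uqcrb set pointed the other way, with a difference of 0.045 (SE 0.062). In the brightest sets of Uqcrc1 and Uqcrb, clone 1 with ascorbic acid was the lowest and clone 4 without it the highest.

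Uqcrfs1, the Rieske iron-sulfur protein that passes electrons on to cytochrome c1, had the widest range in complex III, 0.67 log2. It read 4661, 3903, 5592 and 4738 with ascorbic acid and 3510, 4738, 4874 and 4803 without. Clone 1 without ascorbic acid stood alone below its group, and without that clone the difference of 0.077 (SE 0.12) became -0.036. Uqcr10, a small structural subunit, read 3094, 3951, 3553 and 3330 with and 3758, 3675, 3620 and 3260 without (difference -0.043, SE 0.078). Its other probe sets differed in direction: a dimmer one was higher with ascorbic acid, at 506.1 ± 51.7 against 421.4 ± 39.3 (SD, n = 4 per group). Adjusted over all probe sets, the lowest p of any member probe set was 0.731.

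Complex IV, cytochrome c oxidase, had 15 tested members, 3 higher and 12 lower with ascorbic acid as deposited and 6 and 9 after quantile normalization. The median was -0.079 as deposited and -0.029 to -0.045 under the other scalings, and 0 were called. It held both members with an unadjusted p under 0.05 on the lower side. Cox7c, a small nuclear subunit, read 398.7, 357.7, 366.9 and 303.5 with ascorbic acid and 459, 503.6, 449.1 and 372.8 without. Clone 4 without ascorbic acid fell among the clones with it, and the other 3 clones without were above all of them. The difference was -0.31 (SE 0.12, adjusted p 0.787). This probe set is dim for the complex, with a mean signal of 401.4 against a median of 7111 over the tested members. Its suffix marks shared sequence. A dimmer Cox7c probe set read 161.3 ± 26.6 with and 171.7 ± 34.6 without, and its difference was -0.074 (SE 0.18).

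Cox6b2, the testis isoform of a subunit on the intermembrane side, read 3563, 4362, 4330 and 3357 with ascorbic acid and 4841, 4104, 4150 and 5005 without. Clones 1 and 4 with ascorbic acid were below, and clones 1 and 4 without it above, all other clones. The difference was -0.22 (SE 0.098, adjusted p 0.839). Its somatic partner Cox6b1 read 9249, 10571, 11138 and 9490 with and 10650, 9353, 10298 and 10918 without. The groups of Cox6b1 overlapped fully, and its difference of -0.029 (SE 0.077, adjusted p 0.970) turned to 0.025 after quantile normalization, 0.019 after cyclic loess and 0.0045 after median centring.

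Cox5a, a matrix-side subunit, read 16018, 16280, 18532 and 15754 with ascorbic acid and 18005, 17105, 19035 and 18520 without. Clone 3 with ascorbic acid lay among the clones without, and its other clones were below them. The difference was -0.13 (SE 0.072, adjusted p 0.839), and it was 0.024 after quantile normalization. Cox6c read 10148, 11895, 12857 and 10447 with and 12946, 11182, 12327 and 13365 without (difference -0.14, SE 0.087, adjusted p 0.847). A dimmer Cox6c set pointed the other way, with a difference of 0.040 (SE 0.066).

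Cox5b, a zinc-binding subunit, was the gene whose probe sets disagreed most. The brightest set read 9540, 11417, 12435 and 10360 with ascorbic acid and 11692, 9642, 11251 and 11046 without, a difference of 0.00053 (SE 0.089). Another bright set read 8560, 7617, 7867 and 9366 with and 10660, 9392, 10120 and 9875 without. Its groups did not overlap, and its difference was -0.26 (SE 0.076, p 0.0047 before and 0.731 after adjustment over all probe sets). A dim set of the same gene was higher with ascorbic acid, by 0.27 (SE 0.26). The mean of the Cox5b sets above the filter gave -0.026.

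Several subunits of complex IV, and Ndufa4, grouped here under complex I by its symbol, have isoforms that depend on tissue or oxygen. No isoform passed the test. Cox8c and Cox7b2 belong to testis, Cox6a2, Cox7a1 and Cox8b to heart and skeletal muscle, Cox4i2 to lung and low oxygen, and Ndufa4l2 is induced by hypoxia. Cox8c read 1467, 969.4, 1054 and 1399 with ascorbic acid and 1291, 1281, 1233 and 1348 without. The clones with ascorbic acid split around those without, which lay within 1233 to 1348, and the difference was -0.096 (SE 0.12, adjusted p 0.934). Its partner Cox8a read 6239, 7238, 7592 and 6368 with and 7540, 6646, 7622 and 7645 without (difference -0.10, SE 0.077, adjusted p 0.878).

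Among the muscle isoforms, Cox7a1 read 797.4, 745.3, 748.8 and 686.9 with ascorbic acid and 748.4, 655.8, 705.6 and 759.8 without (difference 0.053, SE 0.077). The Cox7a1 groups overlapped, as did those of its partner Cox7a2, which had a difference of -0.072 (SE 0.075) that was 0.029 after quantile normalization. Cox6a2 read 251.7, 197.2, 193.4 and 214.3 with and 227.6, 197.3, 170.8 and 203.3 without (difference 0.093, SE 0.14). Its partner Cox6a1 read 10586, 13156, 13889 and 11858 with and 14188, 11629, 13987 and 14310 without, with clone 2 without ascorbic acid apart from its group (difference -0.13, SE 0.096, adjusted p 0.871). In a further Cox6a1 set that clone was not apart, at 6001 against 6070 to 6607 in its group. Cox8b was below the filter with signals of 8.693 to 77.73, and so was Cox7b2 with 51.87 to 88.59.

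The low-oxygen isoforms gave no separation either. Cox4i2 read 193.6, 185.8, 175.9 and 203.2 with ascorbic acid and 204.2, 187.2, 222.3 and 186.8 without (difference -0.070, SE 0.13). Its partner Cox4i1 ranged from 10040 to 11788 with and 10703 to 12244 without (difference -0.079, SE 0.072). Ndufa4l2, the paralog of Ndufa4, read 2275, 2214, 2568 and 2237 with and 1906, 2384, 2214 and 2552 without. Clone 1 without ascorbic acid was the lowest for Ndufa4l2, and the difference of 0.043 (SE 0.087, adjusted p 0.960) was -0.037 without that clone.

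**Figure D2:**
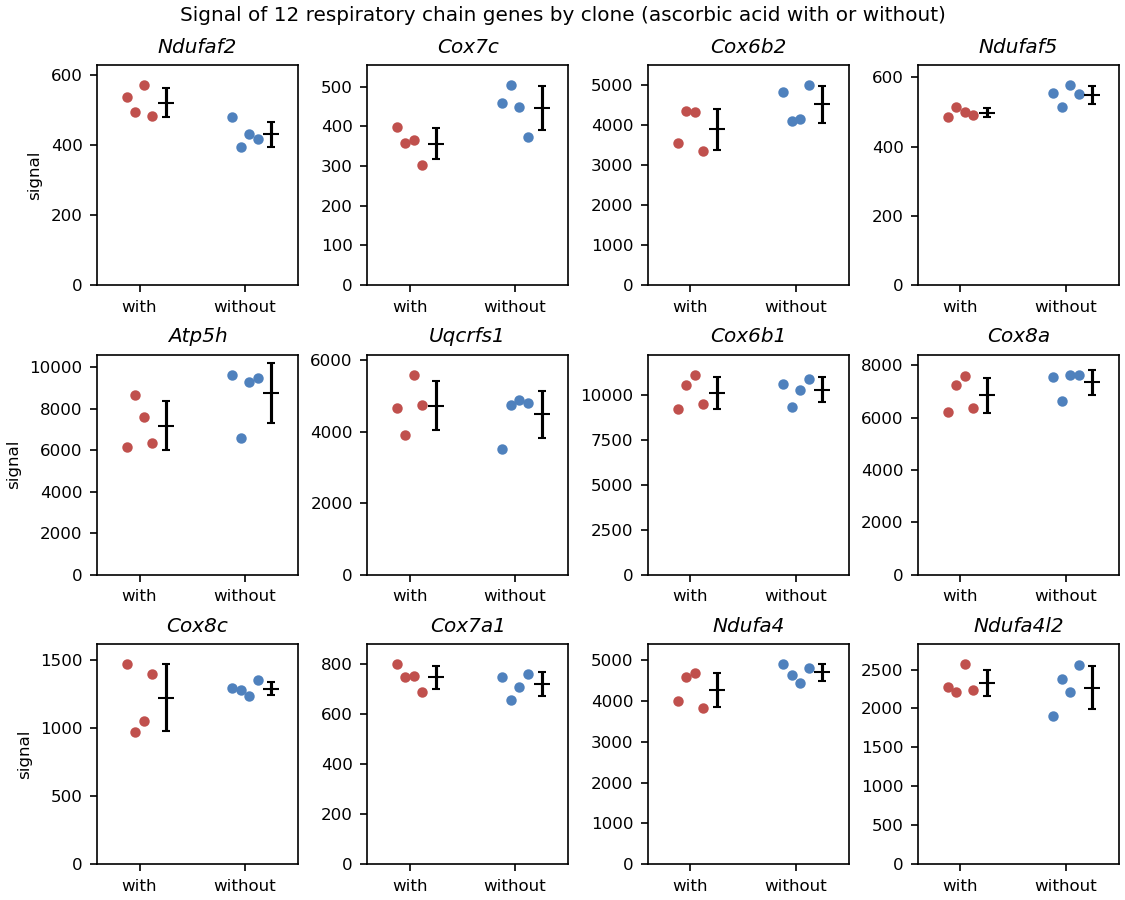
Signal (linear scale from 0) of 12 respiratory chain genes in each of 4 clones with (red) and 4 without (blue) ascorbic acid, in clone order from left to right, with the mean and SD of each group in black. Groups are apart for Ndufaf2 (484.4 to 571.7 with, 396.4 to 479.6 without) and Ndufaf5 (484.8 to 514.1 with, 515.9 to 577.5 without), and overlap for the other 10.

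ATP synthase had 17 tested genes, 5 higher and 12 lower with ascorbic acid as deposited, 9 and 8 after quantile normalization or cyclic loess and 8 and 9 after median centring. The median was -0.045 as deposited and 0.0042 after quantile normalization, and 0 were called. Atp5h, subunit d of the peripheral stalk, had the smallest p and the widest range, 0.649 log2. It read 6147, 8650, 7622 and 6342 with ascorbic acid and 9645, 6616, 9272 and 9498 without. Clone 2 without ascorbic acid lay far below its group and between the clones with it. The difference was -0.28 (SE 0.13, adjusted p 0.839). Without that clone it was -0.41, with an adjusted p of 0.593, the lowest that any named gene reached under any alternative. These values belong to the brightest Atp5h probe set. Another bright set read 5926, 6819, 6888 and 5937 with ascorbic acid and 7168, 6497, 6952 and 6704 without. In it clone 2 without ascorbic acid lay close to the next clone of its group, and the difference was -0.098 (SE 0.070).

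Atp5b, the catalytic beta subunit, read 17082, 19118, 20574 and 17852 with ascorbic acid and 20730, 18367, 22028 and 21090 without. The difference was -0.14 (SE 0.082, adjusted p 0.839), and it was 0.031 after quantile normalization. Atp5a1, the alpha subunit that alternates with beta in the catalytic head, had a difference of -0.14 (SE 0.091, adjusted p 0.847). Clone 1 with ascorbic acid was the lowest for Atp5b and Atp5a1.

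Atp5g1, Atp5g2 and Atp5g3 encode the same mature subunit c of the membrane ring behind different targeting sequences. Atp5g3 read 13345, 15148, 17314 and 14340 with ascorbic acid and 17016, 14798, 18332 and 16593 without (difference -0.15, SE 0.091, adjusted p 0.839). Atp5g1 read 3070, 3527, 3544 and 3187 with and 3571, 3584, 3502 and 3598 without (difference -0.099, SE 0.060, adjusted p 0.839). Atp5g2 had a difference of -0.045 (SE 0.082). The clones without ascorbic acid were close together for Atp5g1, at 3502 to 3598, and those with it reached further down.

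The 12 assembly factors had 8 members higher and 4 lower with ascorbic acid (10 and 2 after median centring), a median of 0.042, and 0 called. They held both members whose groups did not overlap, with opposite directions. Ndufaf2, a chaperone that binds a late assembly intermediate of complex I, read 538.5, 494.5, 571.7 and 484.4 with ascorbic acid and 479.6, 396.4, 432.2 and 417.5 without. All 4 clones with it were above the 4 without, although clone 4 with (484.4) and clone 1 without (479.6) nearly met. The difference was 0.27 (1.2-fold, SE 0.094, 95% interval 0.063 to 0.47, p 0.0147, adjusted p 0.769), and it stayed between 0.22 and 0.32 when each clone in turn was left out.

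Ndufaf5, an enzyme that hydroxylates an arginine of the complex I subunit Ndufs7, read 484.8, 514.1, 500.5 and 492.4 with ascorbic acid and 554.3, 515.9, 577.5 and 552.6 without. All clones with ascorbic acid were below those without, by a narrow margin between 514.1 and 515.9. The difference was -0.14 (SE 0.077, adjusted p 0.839). Ndufaf6, a further complex I factor, had the widest range of the group, 0.6 log2, and read 843.5, 779.3, 1037 and 1190 with and 950, 1040, 781.3 and 882.9 without. Its clones did not order by group (difference 0.062, SE 0.13). The complex II factors Sdhaf1, Sdhaf2, Sdhaf3 and Sdhaf4 had differences of 0.063, -0.013, 0.054 and -0.11, with adjusted p from 0.847 to 0.982.

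The order of clones by the members' level did not follow the groups. In the scaling as deposited, the mean deviation of the 91 members from their own 8-clone means was -0.084 in clone 1 and -0.065 in clone 4 with ascorbic acid and -0.041 in clone 2 without. In the other 5 clones it was 0.026 to 0.063. In those 3 low clones 72, 76 and 63 of the 91 members lay below their own mean. The low clones thus came from both groups, and 2 of them were clones with ascorbic acid.

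ATP synthase and complex II followed that order most closely. All 17 ATP synthase genes were below their mean in clone 4 with ascorbic acid, 16 of 17 in clone 1 with it and 16 of 17 in clone 2 without it. All 4 complex II genes were below their mean in each of the 3 clones. Complex IV had 11, 11 and 13 of 15 below in the same clones, and 0 of 15 below in clone 1 without ascorbic acid. The assembly factors had mean deviations of -0.00046, -0.019 and -0.0041 in these clones, and 7, 8 and 6 of 12 below.

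**Figure D3:**
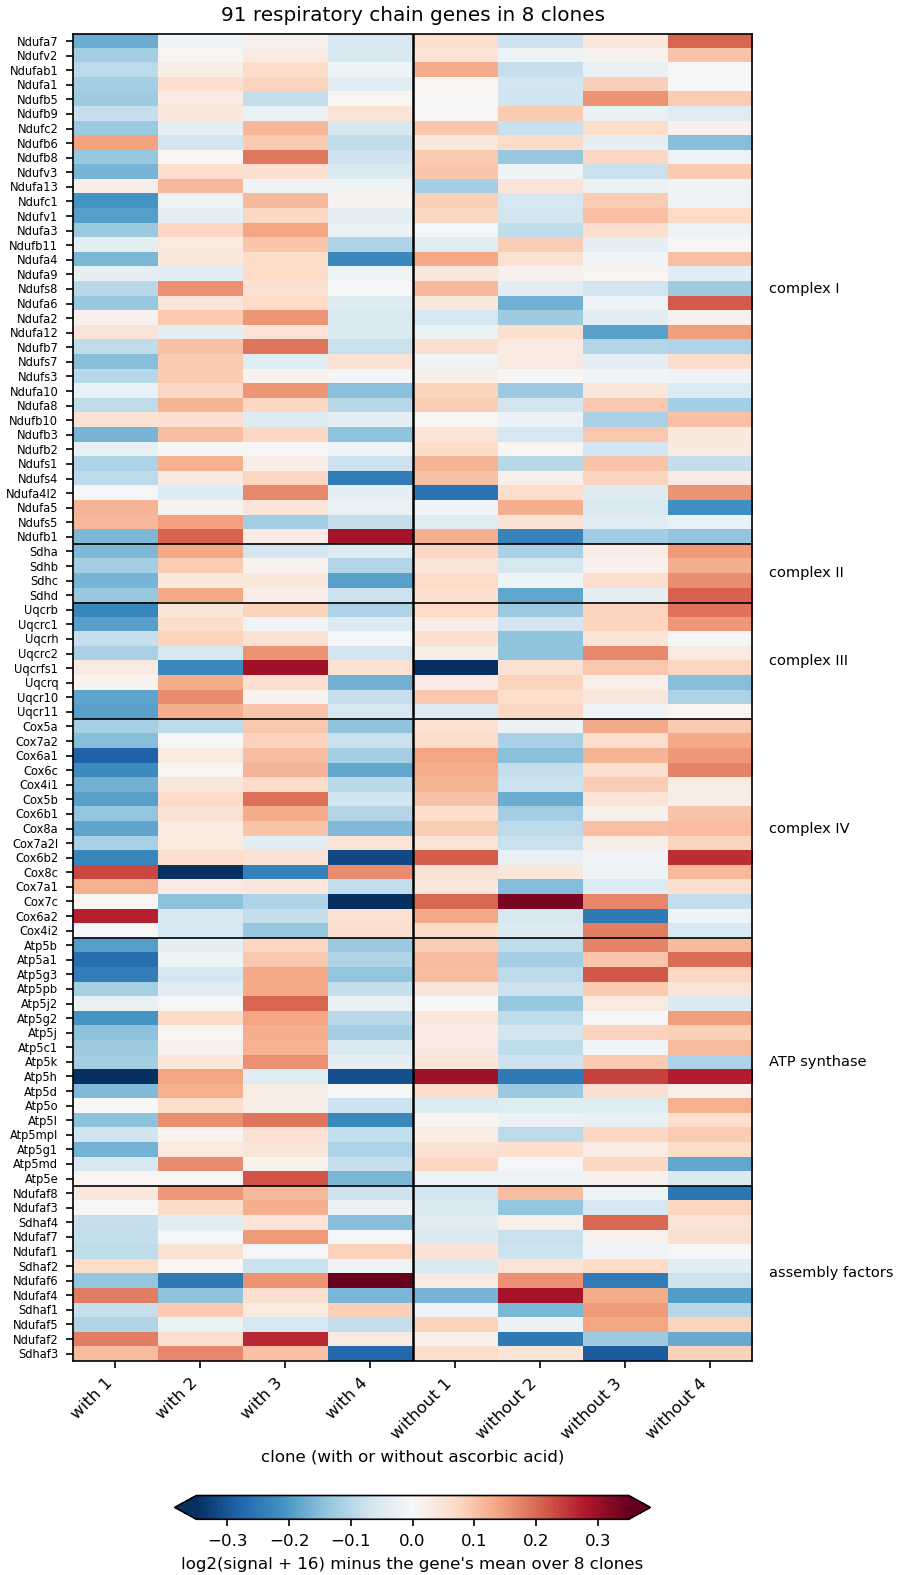
Each row is 1 of 91 respiratory chain genes, ordered by complex and brightness, each column 1 clone, and the colour is log2(signal + 16) minus the gene's mean over 8 clones (blue lower, red higher; colours end at the limits of the bar). Blue columns for clones 1 and 4 with and clone 2 without ascorbic acid run through the complexes, where 72, 76 and 63 of 91 genes are below their mean.

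The bright end of the whole array moved with the same clones. The 100 brightest probe sets, with controls counted, held 6.07%, 6.39% and 6.6% of the array's signal in the 3 low clones. In the other 5 they held 6.98% to 8.36%. All 309 genes with a mean signal of 8000 or more deviated by -0.168, -0.093 and -0.084 in the 3 low clones and by -0.0094 to 0.109 in the others. After quantile normalization, which gives every array the same distribution, the members' deviations in the 3 clones were -0.031, -0.038 and -0.015, and those of complex II were -0.089, -0.084 and -0.070. The part of array brightness in the members' order by clone was not tested further. Pluripotency markers, which are bright, had their 3 lowest sums in the same clones (88291, 92526 and 96746, against 97430 to 112291 in the other 5). Fibroblast marker sums were 42207 and 41235 in the low clones with ascorbic acid, 43416 and 50578 in the other clones with it, 50232 in the low clone without it and 49077 to 51841 in the other clones without it. The part of these cells in the order was not tested. Members' share of the array's signal was 1.516% ± 0.060 in clones with and 1.537% ± 0.032 in clones without it (SD, n = 4 per group).

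**Figure D4:**
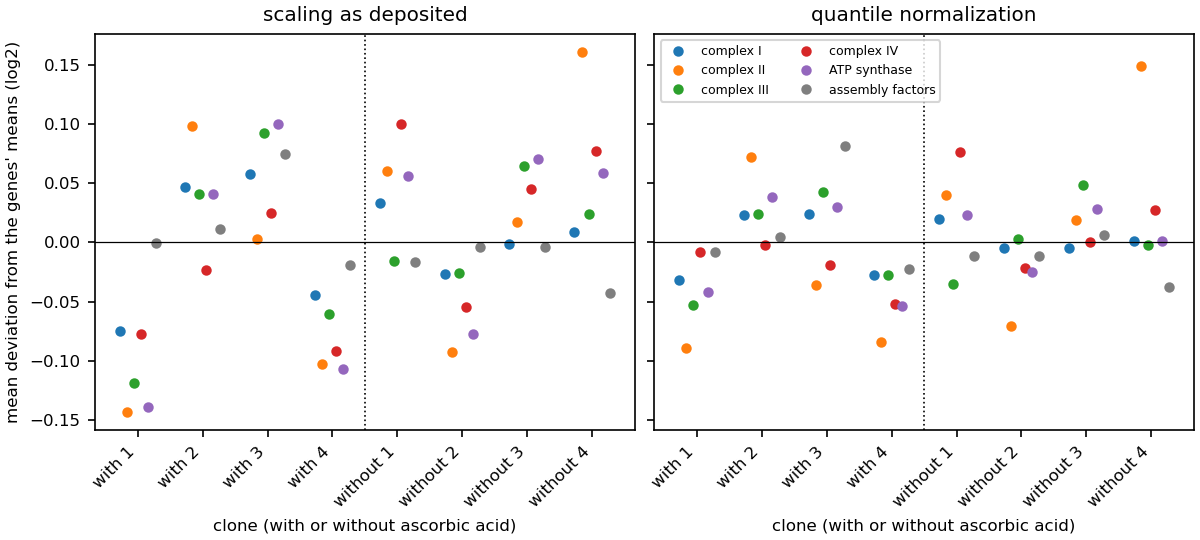
Mean deviation (log2) of the genes of each complex from their own 8-clone means in each clone, as deposited (left) and after quantile normalization (right). On the left, ATP synthase lies at -0.139 and -0.107 in clones 1 and 4 with and -0.078 in clone 2 without ascorbic acid; on the right these become -0.042, -0.054 and -0.025.

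The group difference also went with brightness. Among the 19 members with a mean signal of 8000 or more, 16 were lower with ascorbic acid, with a median of -0.079. Of all 309 genes that bright, 262 were lower in the scaling as deposited, with a median of -0.077. Among the 34 members between 4000 and 8000, 26 were lower (median -0.030, all genes -0.0082). Among the 18 between 2000 and 4000 the median was 0.0018 (all genes 0.0091), and among the 8 between 1000 and 2000 it was 0.028 (all genes 0.011). After quantile normalization the genes of 8000 or more had mean deviations between -0.0092 and 0.0097 in the 8 clones.

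**Figure D5:**
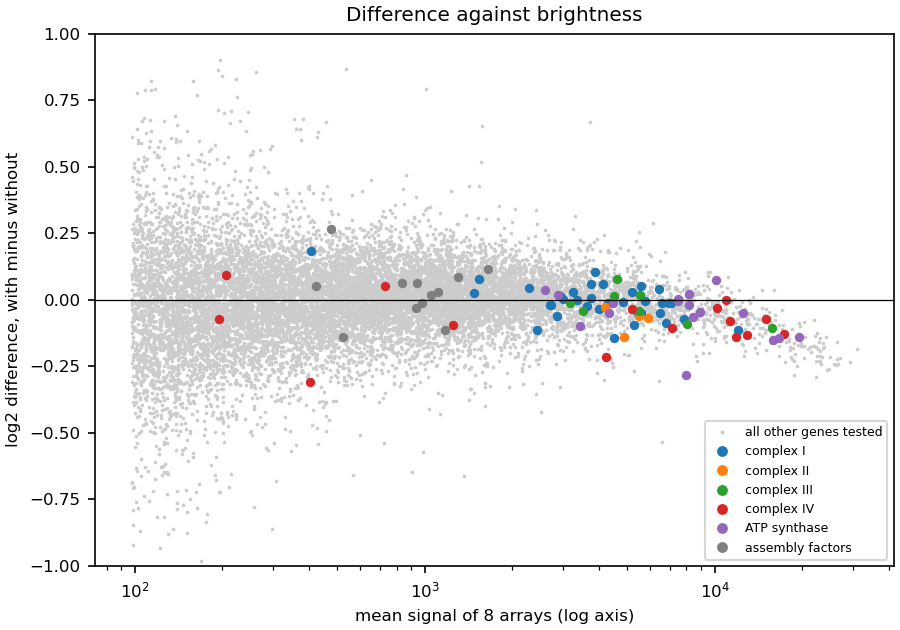
Log2 difference, with minus without ascorbic acid, against mean signal of 8 arrays (log axis) for respiratory chain genes (coloured by complex) and all other tested genes (grey; 12 genes lie outside the vertical axis). At the bright end both members and other genes lie mostly below 0: 16 of 19 members and 262 of all 309 genes of 8000 or more.

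Genes around the respiratory chain that the rule did not take gave no call either. Of Cyc1, Cycs and Cyct (cytochrome c1 and both cytochromes c), 2 were higher and 1 lower, and Cyc1, the catalytic partner of Uqcrfs1, had a difference of -0.071 (SE 0.085). A list of further assembly factors also held Atpif1 and Lrpprc, which are not assembly factors in the strict sense. Of its 32 tested genes, 20 were higher, these included, and 12 lower, with a median of 0.039 and 0 called. An unadjusted p under 0.05 by limma was found for 3 (9.38%), against 5.87% of all genes. That count was 0 with the clone number as a block, without clone 3 with ascorbic acid and without clone 4 without it. The shares of all genes were then 5.26%, 6.99% and 5.36%. Tmem126b, a factor for the membrane arm of complex I, read 191.1, 160.5, 191.2 and 154 with ascorbic acid and 146.5, 131.1, 134.3 and 117 without. All its clones with ascorbic acid were above those without, as for 2.06% of all genes. The difference was 0.36 (SE 0.15, adjusted p 0.823 by limma). Atpaf1, an assembly factor of ATP synthase, read 556.2 ± 64.9 with and 654.8 ± 63.5 without (SD, n = 4 each; adjusted p 0.838).

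The regulators of mitochondrial genes were level, with 9 of 18 higher (12 after median centring), a median of 0.0028 and 0 called. The motifs of NRF1, GABP and YY1 were each more frequent in member promoters than in those of tested genes. Nrf1 read 1279 to 1483 with and 1299 to 1430 without ascorbic acid (difference 0.023, SE 0.065). Yy1 had a difference of 0.051 (SE 0.049). Gabpa had a difference of -0.024 (SE 0.057), and Tfam, the packaging and transcription factor of mitochondrial DNA, one of 0.0099 (SE 0.053). Tefm, the mitochondrial transcription elongation factor, had the smallest p of that list and read 716.8, 781.7, 826.8 and 800.7 with and 771.9, 876.7, 905.9 and 939.6 without (difference -0.16, SE 0.080, adjusted p 0.839).

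Of 16 genes of the tricarboxylic acid cycle and pyruvate dehydrogenase, 7 were higher and 9 lower as deposited, 10 and 6 after cyclic loess and 11 and 5 after median centring, with a median of -0.0092 (0.024 after median centring) and 0 called. Suclg2, the GTP-forming subunit of succinyl-CoA ligase, read 3434, 3876, 3636 and 2703 with ascorbic acid and 3994, 3730, 3802 and 3956 without (difference -0.19, SE 0.094, adjusted p 0.839). Clone 4 with ascorbic acid was the low one. Of 76 mitochondrial ribosomal protein genes, 48 were higher and 28 lower (61 and 15 after median centring), with a median of 0.021 and 0 called. Mrps28, of the small subunit, read 1467, 1487, 1470 and 1340 with and 1214, 1323, 1389 and 1202 without (difference 0.17, SE 0.067, adjusted p 0.812). Its groups overlapped through clone 4 with and clone 3 without ascorbic acid. No gene encoded in mitochondrial DNA had a probe set under the symbols used, so these subunits were not analysed here.

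A fit of every probe set above the filter gave no call among the members either. The 167 member probe sets in it include those that stand for the genes. Of these 167, 66 were higher and 101 lower, and 0 were called among 27022 probe sets. An unadjusted p under 0.05 by limma was found for 6, including the brightest sets of Ndufaf2 and Cox7c. The share over all probe sets was not counted. Over all genes it was 5.87%. Of the 48 members with several such sets, 19 had all in 1 direction and 29 had both directions. Sets of 1 direction could still differ in size. For Atp5c1, the gamma subunit that turns in the catalytic head, the brightest set read 8132 ± 595 with and 8241 ± 475 without, and a dim set read 181.5 ± 16.8 and 239 ± 9.15 (SD, n = 4 each), a difference of -0.37 (SE 0.12). A further Cox6a1 set, at 5531 ± 301 with and 6187 ± 282 without, had a difference of -0.16 (SE 0.062) beside the -0.13 of its brightest set.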

How the data were processed

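Total RNA of 8 iPS clones was labelled as biotinylated cRNA and hybridised to 1 array each, per the labels' protocols. The deposited table holds linear signal intensity, 1 value per probe set and array. Per the submitters' processing notes the authors used GCOS; which version or algorithm is not given in the sources used here. Every array has a mean of 500 after trimming 2% at each end. Precision is limited by the number of arrays, 4 per group.

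Of 45101 probe sets, 64 controls were left out, 34945 carry 1 gene symbol, 932 several and 9160 none. Of the probe sets with several symbols, 10 include a symbol with a prefix of the rule. Some of these name Ndufa11 with Ndufa11b or Ndufs6 with Ndufs6b, and Ndufa11 and Ndufs6 are therefore not members. Symbols are those of the platform annotation and can be old. Scaling was kept as deposited because the array medians of log2(signal + 16) spanned 0.1993, just under the limit of 0.2; those of the signals without the added 16 spanned 0.2213 log2, and counts under other scalings are therefore given beside the main ones. Values were transformed as log2(signal + 16), so differences of dim genes are understated. The dimmest 40% of probe sets (mean signal up to 97.54) were left out, and the brightest probe set stood for a gene. Genes were fitted with limma 3.58.1 (lmFit, eBayes with intensity trend) in R 4.3.3 over all 13129 genes, two-sided, with Benjamini-Hochberg adjustment and a threshold of 0.05. The code was tested on simulated data. Gene lists are described by counts and medians without a test. Promoter windows come from RefSeq tables of GRCm38.p6, used for sequence and neighbouring genes; the array files name no build. Drawings were made with matplotlib 3.10.9.

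Members and lists were chosen with earlier results of these data known. Genes named are the 4 with the smallest p in complexes I, III, IV and ATP synthase, all of complex II, 2 assembly factors, the listed isoforms and partners, genes whose probe sets disagree by 0.2 log2 in both directions, the widest range in each complex and the smallest p of each related list; other genes named were chosen after their values were seen. Alternatives were the scaling, pseudocount, filter, probe set rule, variance model, a clone number block and leaving out each clone. Cox7b, Ndufa11 and Ndufs6 had no probe set under their symbols alone.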

Additional observations from a re-analysis of the deposited data

Results flagged for a closer look

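Among the genes named, 84 groups of 4 clones were searched for a clone far from the other 3, by the gap to its nearest neighbour over the range of the group (Dixon's test). This marked 5 groups (5.95%). The cut-off marks about 5% of groups that are independent and not chosen by their values. Some genes here were named for a wide range or a small p, and genes shared low clones. The share is therefore not compared with chance. In the group without ascorbic acid, the signal of Uqcrfs1 was 3510 in clone 1 and lay between 4738 and 4874 in the other 3. Clone 2 of that group was marked for 3 genes: Atp5h, at 6616 against 9272 to 9645, Cox6a1, at 11629 against 13987 to 14310, and Cox8a, at 6646 against 7540 to 7645. Only the brightest probe set of each gene was searched. In another bright set of these 3 genes clone 2 was also lowest, but close to the next clone. It read 6497 against 6704 to 7168 for Atp5h and 6001 against 6070 to 6607 for Cox6a1. For Cox8a it read 6362 against 6502 to 7045. That clone is also 1 of the 3 in which most members lay below their own mean. In the group with ascorbic acid, the signal of Mrps28 was 1340 in clone 4 and lay between 1467 and 1487 in its companions.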

How the results depend on the processing

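Under all 21 alternatives 0 members had an adjusted p under 0.05 by limma. The counts at an unadjusted p under 0.05 moved with single clones, from 3 of 91 to 10 (11%, all genes 6.99%) without clone 3 with ascorbic acid, 9 (9.89%, all genes 7.25%) without clone 2 without it, 6 (6.59%, all genes 6.84%) without clone 2 with it and 1 (1.1%, all genes 4.94%) without clone 1 without it. They were 7 (7.69%) after quantile normalization or cyclic loess (all genes 6.15% and 6.26%). The median of all members was -0.047 to 0.0040 when clones were left out in turn. The ranges were -0.023 to 0.0075 for complex I, -0.11 to -0.029 for II, -0.051 to 0.012 for III, -0.12 to -0.059 for IV, -0.083 to 0.0044 for ATP synthase and 0.014 (without clone 3 without ascorbic acid) to 0.057 for the assembly factors. The upper ends of I, III and ATP synthase came without clone 1 with ascorbic acid, where 9 of 17 ATP synthase genes were higher, against 2 without clone 3 with it. Median centring raised the assembly factors' median to 0.075 and that of the regulators to 0.036. Cox7c was -0.074 without the probe sets whose suffix marks shared sequence.

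Of 836 alternative values of the 40 named genes, 805 kept the sign and 31, in 12 genes, turned it, none past the threshold. Quantile normalization turned Atp5b to 0.031, Cox5a to 0.024, Cox6b1 to 0.025, Cox7a2 to 0.029 and Uqcrb to 0.0098. Median centring turned Cox6b1 to 0.0045 and Sdhd to 0.0082, and cyclic loess turned Cox6b1 to 0.019. The mean of probe sets gave Cox5b -0.026, Cox6b1 0.021, Cox8c 0.026, Sdhd 0.092 and Uqcr10 0.084. Cox5b was -0.26 without shared-sequence probe sets and -0.014 with array weights. Leaving out clones gave ranges of -0.089 to 0.064 for Cox5b, -0.077 to 0.012 for Cox6b1, -0.19 to 0.0061 for Cox8c, -0.037 to 0.10 for Ndufa4l2, -0.045 to 0.16 for Ndufaf6, -0.090 to 0.039 for Sdhd, -0.11 to 0.012 for Uqcr10 and -0.036 to 0.16 for Uqcrfs1. The cause was not tested.

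Clones that share a number showed no pairing: the correlations of their deviations were -0.156, -0.0586, 0.0144 and -0.0317. With the clone number as a replicate block, 0 members were called, the lowest adjusted p was 0.891 and the median stayed at -0.020. The 4 arrays per group limit the precision of every difference.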
